A study of Rattus norvegicus with 23 samples.

Results

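Transcript levels of 10 genes for chains of type IV collagen (Col4a1, Col4a2, Col4a3, Col4a4), laminin chains (Lama2, Lama5, Lamb1, Lamb2, Lamc1) and nidogen (Nid1) were followed in hearts and kidneys of rats with and without nephrectomy and an arteriovenous fistula. The genes were chosen by name, were matched by symbol and gene identifier, and are 10 of the 32552 genes counted. All 10 were counted in every library, with at least 150 reads in the library with the lowest count (Col4a3 in heart), and all 10 passed the filter on low counts in both organs.

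RNA came from snap-frozen heart and kidney of Sprague-Dawley rats, 13 weeks old, 4 weeks after the operation. Sham rats had a sham operation. NX rats had lost 5/6 of their kidney tissue by partial nephrectomy, an established way to produce chronic kidney disease. AVF+NX rats had the same nephrectomy and also a fistula that joined the jugular vein to the carotid artery, a connection like the one made as an access for haemodialysis. No group had the fistula without nephrectomy, so a difference between AVF+NX and Sham holds both operations. The 23 libraries were 3 Sham, 4 NX and 4 AVF+NX hearts and 4 kidneys of each group. Replicates are numbered as biological ones in the labels, which give neither the pairing of hearts with kidneys by rat nor the part of each organ that was used.

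Basement membranes are thin sheets of extracellular matrix under epithelia and endothelia and around each muscle cell. Laminin trimers, built from an alpha, a beta and a gamma chain, form a sheet at the cell surface, and type IV collagen trimers form a second, covalently linked network, with nidogen as a bridge between them. Col4a1 and Col4a2 supply the collagen of nearly all basement membranes, whereas Col4a3 and Col4a4, together with Col4a5, supply the network of the mature glomerular filter, where it is made by podocytes. Lama2 is the alpha chain of laminin around muscle cells. Lama5 and Lamb2 are the alpha and beta chains of the mature glomerular laminin, Lamb1 is the more widespread beta chain, and Lamc1 is the gamma chain of most laminin trimers.

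The collagen genes lie in head-to-head pairs, each pair transcribed outwards from a common stretch of DNA, and this stretch is printed because the members of a pair can be compared in every library below. RefSeq (assembly GRCr8) placed the starts of Col4a2 (minus strand) and Col4a1 (plus strand) on chromosome 16 with 76 bases between them, at chr16:84885521-84885596. The starts of Col4a4 (minus strand) and Col4a3 (plus strand) on chromosome 9 had 412 bases between them, of which the RefSeq promoter windows (250 bases before to 50 after a start) of both genes hold the 88 bases at chr9:91323740-91323827. Both are shown on the plus strand, 5′ to 3′, and capitals mark GGGCGG, searched on both strands together with CCAAT and TATAAA.
Col4a2 to Col4a1: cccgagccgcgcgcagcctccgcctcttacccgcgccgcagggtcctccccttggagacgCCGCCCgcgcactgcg
Col4a4 to Col4a3: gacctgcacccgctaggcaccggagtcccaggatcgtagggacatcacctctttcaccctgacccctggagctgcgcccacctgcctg
The Col4a2 to Col4a1 stretch was 78.9% G and C and held 1 GGGCGG, a motif that 18.1% of 33469 RefSeq promoters hold in a window of the same length and distance from the start. The Col4a4 to Col4a3 stretch was 65.9% G and C and held none of the 3 motifs, beside 9.12% of promoters with GGGCGG in the matching window. Over the whole 300-base windows, 9 of the 10 genes were matched. GGGCGG was in 8 of these 9 (33.1% of all promoters), CCAAT in 4 of 9 (37.5%) and TATAAA in 0 of 9 (14.2%). The windows of a pair overlap, and those of Col4a1 and Col4a2 both hold the printed GGGCGG, so the 9 are not independent. A match describes the letters only.

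In the deposited count files, whose genome build is not given in the sources used here, Col4a1 lies on chromosome 16 at 83522162 to 83632153 and Col4a2 at 83387364 to 83438561. The files leave 83600 bases between the Col4a2 and Col4a1 models, unlike the 76 in RefSeq, so the files and RefSeq differ in where these genes start. Col4a3 (chromosome 9, 88357556 to 88485830) and Col4a4 (88232455 to 88357182) lie 373 bases apart in the files. Lama2 is on chromosome 1 (18491384 to 19143269), Lama5 on chromosome 3 (175553045 to 175601127) and Lamb1 on chromosome 6 (50528823 to 50596079). Lamb2 is on chromosome 8 (117268337 to 117280517), Lamc1 on chromosome 13 (70658707 to 70783515) and Nid1 on chromosome 17 (90553394 to 90627101). The counted exons of the 10 genes shared 0 bases with exons of another gene in the files.

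Total counts ran from 9069354 to 18782085 in the kidney libraries and from 9605973 to 48079431 in the heart libraries. Depth moved with the group in heart, with 9894716 to 11866042 counts in Sham and 11889483 to 48079431 in AVF+NX. An index of 63 genes for small RNAs (the mean of their scaled log2 CPM) moved with it, from 0.68 to 0.72 in Sham hearts and from -0.78 to -0.17 in AVF+NX hearts. The sum of 8 cardiomyocyte markers was 61180 to 75660 CPM in hearts and 16.6 to 29.0 CPM in kidneys, and that of 8 proximal tubule markers was 10790 to 22770 CPM in kidneys and 319 to 696 CPM in hearts, so each tissue carried its own markers. CPM are counts scaled to a common library total after TMM adjustment. A gene is called here when edgeR's quasi-likelihood test, adjusted over all genes tested by the Benjamini-Hochberg method, gave an adjusted p below 0.05. In bulk tissue, fewer cells of a type and less RNA per cell cannot be told apart.

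The order of the 10 genes differed between the organs of sham rats. Per kilobase of counted exon, Lamb2 was highest in heart at 174 ± 9.51 CPM per kb (SD, n = 3). Col4a1 (93.7 ± 4.33), Col4a2 (89.7 ± 6.62) and Lamc1 (89.4 ± 4.04) followed at levels whose libraries overlapped, and Lamb1 (57.6), Nid1 (46.6) and Lama2 (44.9) came next, of which Nid1 and Lama2 overlapped. Lama5 (9.32) and Col4a4 (8.61) were low and overlapped, and Col4a3 was lowest at 3.01 ± 0.0586 CPM per kb.

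In sham kidney Col4a4 led at 91.8 ± 9.08 CPM per kb (SD, n = 4), above Col4a1 (64.65 ± 7.47) and Col4a2 (57.5 ± 5.11), which overlapped. Nid1 (43.3) overlapped Lamb1 (41.4) and Lamb2 (33.8), Col4a3 (25.8) overlapped Lamc1 (20.2), and Lama5 (17.1) and Lama2 (7.01) were lowest. Col4a4 was thus first in the kidney order and second from the bottom in the heart order, and Lama2 was last in the kidney order. Per-length levels rest on the exon lengths in the files (4938 bases for Col4a2 and 6579 for Col4a1), and an incomplete gene model would change them.

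**Figure D1:**
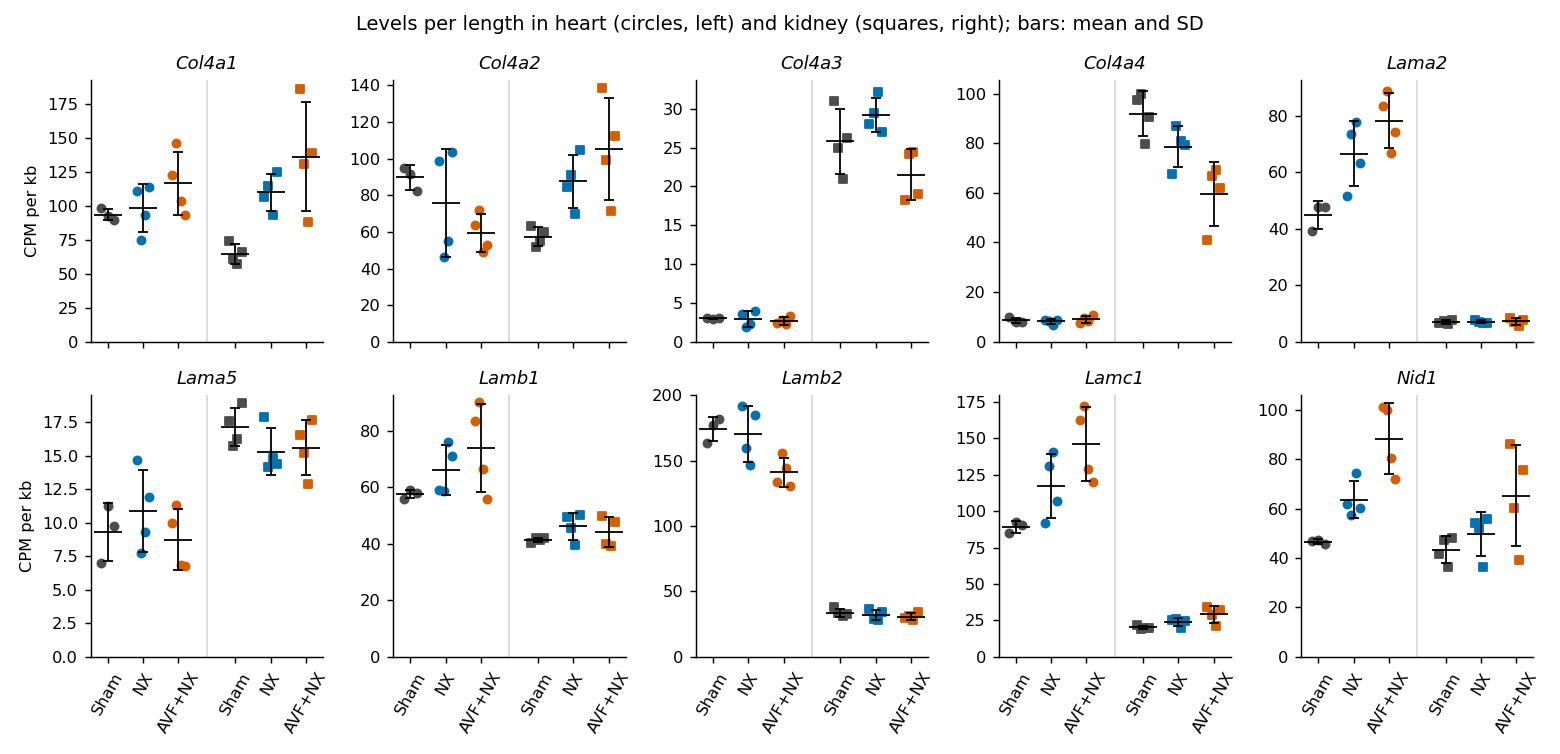
Level per length (CPM per kb of counted exon, y axis from 0, a separate scale for each gene) of the 10 genes in Sham, NX and AVF+NX rats, with heart as circles on the left and kidney as squares on the right of each panel. Each point is a library and bars are mean and SD. Col4a3 and Col4a4 sit high in every kidney library and low in every heart library, and Lama2, Lamb2 and Lamc1 the other way round.

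Between sham organs 9 of the 10 genes were called, beside 71.2% of the 15222 genes tested, with 6 higher in heart (33.2% of all genes) and 3 higher in kidney (37.9%). Laminin chain genes led those higher in heart. Lama2 was 6.40-fold (log2 difference 2.68, SE 0.15, adjusted p = 7.07e-14), Lamb2 5.15-fold (adjusted p = 9.51e-15) and Lamc1 4.42-fold (adjusted p = 2.04e-11) higher by edgeR's test. Lamb1 (log2 0.48), Col4a1 (0.54) and Col4a2 (0.64) were higher in heart by less, and these smaller differences depended on the TMM scaling. With raw library totals, mean CPM per kb in Sham heart and Sham kidney was 45.6 and 50.5 for Lamb1. It was 74.3 and 79.1 for Col4a1 and 71.1 and 70.25 for Col4a2. The Col4a2 call ended without Sham heart library 1 (adjusted p = 0.0542). Kidney had 10.7-fold more Col4a4 (adjusted p = 3.54e-14), 8.57-fold more Col4a3 (adjusted p = 6.38e-12) and 1.84-fold more Lama5 (adjusted p = 0.000584). Nid1, the gene of the bridging protein, differed by 0.11 on the log2 scale (95% interval -0.30 to 0.51, adjusted p = 0.64). By raw library totals its mean was 36.9 CPM per kb in Sham heart and 52.9 in Sham kidney. Col4a3 and Col4a4 were low in heart and still read in every heart library.

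In kidney the first question is what nephrectomy alone was followed by. Col4a1 in CPM was 621, 507, 474 and 554 in the 4 Sham kidneys and 909.6, 974, 779 and 1067 in the 4 NX kidneys. Col4a2 was 397, 323, 343 and 376 in Sham and 543, 578, 438 and 670.0 in NX. Every NX kidney was above every Sham kidney for both genes, and NX library 3 was the lowest NX kidney for both. In that comparison 2 of 10 genes had groups that did not overlap, beside 9.38% of the 14322 genes tested, or 5.28% that were separated with NX above Sham. The fitted log2 changes were 0.79 (SE 0.19, adjusted p = 0.0606) for Col4a1 and 0.63 (SE 0.18, adjusted p = 0.0986) for Col4a2, so edgeR's test called neither. The 0 of 10 called stood beside 1.31% of all genes. Col4a1 and Col4a2, the 2 of 10 with an unadjusted p under 0.05, ranked 247 and 558 by that p among all genes tested. DESeq2 and limma voom each called the same 2 genes, and the share of all genes that either called is not given here. Without NX library 3 both were called by edgeR (Col4a1 0.87, adjusted p = 0.0338, and Col4a2 0.73, adjusted p = 0.0444). In the authors' deposited table for this comparison the adjusted p was 1.42e-07 for Col4a1 and 0.00039 for Col4a2. Of the genes listed there 5.85% were below 0.05, beside the 1.31% called by edgeR's test.

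The glomerular genes did not follow that pattern in NX kidneys. Col4a3 was 263, 211, 177 and 222.5 CPM in Sham and 243, 253, 272.5 and 233.5 CPM in NX, with overlapping groups (log2 0.20, SE 0.13, adjusted p = 0.455). Col4a4 was 1351, 1378, 1100 and 1257 CPM in Sham and 957, 1224, 1118 and 1118 CPM in NX, also overlapping (log2 -0.20, SE 0.15, adjusted p = 0.529). The other 6 genes had log2 values from -0.14 (Lama5) to 0.26 (Lamc1) with overlapping groups.

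With the fistula added, Col4a1 and Col4a2 rose against Sham in kidney and Col4a4 fell. Col4a1 was 1570, 1106, 739 and 1168 CPM in the AVF+NX kidneys, 2.13-fold the Sham level (log2 1.09, SE 0.19, adjusted p = 0.00145). Col4a2 was 874, 628, 447 and 707 CPM, 1.85-fold the Sham level (log2 0.88, SE 0.18, adjusted p = 0.00391). AVF+NX library 3 was the lowest for both genes and still above every Sham kidney, and library 1 was the highest. The podocyte collagen gene Col4a4 was 573, 933, 962 and 861 CPM, all below the lowest Sham kidney, a log2 change of -0.61 with an SE of 0.15 (adjusted p = 0.0121). Library 1, the highest for Col4a1 and Col4a2, was the lowest for Col4a4. Col4a3 was 156, 207, 207 and 162 CPM and overlapped Sham (log2 -0.25, SE 0.13, adjusted p = 0.17). These 3 non-overlapping genes stood beside 27.6% of all genes tested.

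Among the laminin chains of the kidney, only the common gamma chain gene Lamc1 was called. It was 168, 145, 149.5 and 152 CPM in Sham, 197, 199, 149.5 and 191 in NX and 262, 219.8, 164 and 247.5 in AVF+NX, with a log2 change from Sham to AVF+NX of 0.54 (SE 0.14, adjusted p = 0.012). AVF+NX library 3 was below the highest Sham kidney, so the groups overlapped. Nid1 was 303, 339.6, 262 and 347 CPM in Sham and 627, 440.1, 283 and 547 in AVF+NX and was not called (log2 0.60, SE 0.21, adjusted p = 0.0572). Library 3 again lay within the Sham range, and Nid1 was called when it was left out (log2 0.79, adjusted p = 0.00376). With all libraries, DESeq2 (adjusted p = 0.0247) and limma voom (0.0223) called Nid1 higher. In the authors' deposited table Nid1 had an adjusted p of 0.0262, where 31.1% of the genes listed were below 0.05. Lama2, Lama5, Lamb1 and Lamb2 had log2 values from -0.13 to 0.11 with overlapping groups, and the widest of their 95% intervals, that of Lama2, was -0.20 to 0.31.

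In all, 3 of 10 genes rose (15.9% of all genes tested) and 1 of 10 fell (9.18%) between Sham and AVF+NX kidneys, where 25.1% of all genes were called in either direction. The median log2 change was 0.08 over the 10 genes and -0.01 over all genes tested. With an immune index (13 macrophage, B cell and plasma cell markers) as a covariate, 0 of the 10 and 0 of all genes were called, and the fitted values were -0.10 for Col4a1, -0.46 for Col4a2, -0.33 for Lamc1 and -0.25 for Col4a4. The index was -1.17 to -0.84 in Sham and 0.86 to 1.37 in AVF+NX kidneys, so it and the group cannot be told apart.

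**Figure D2:**
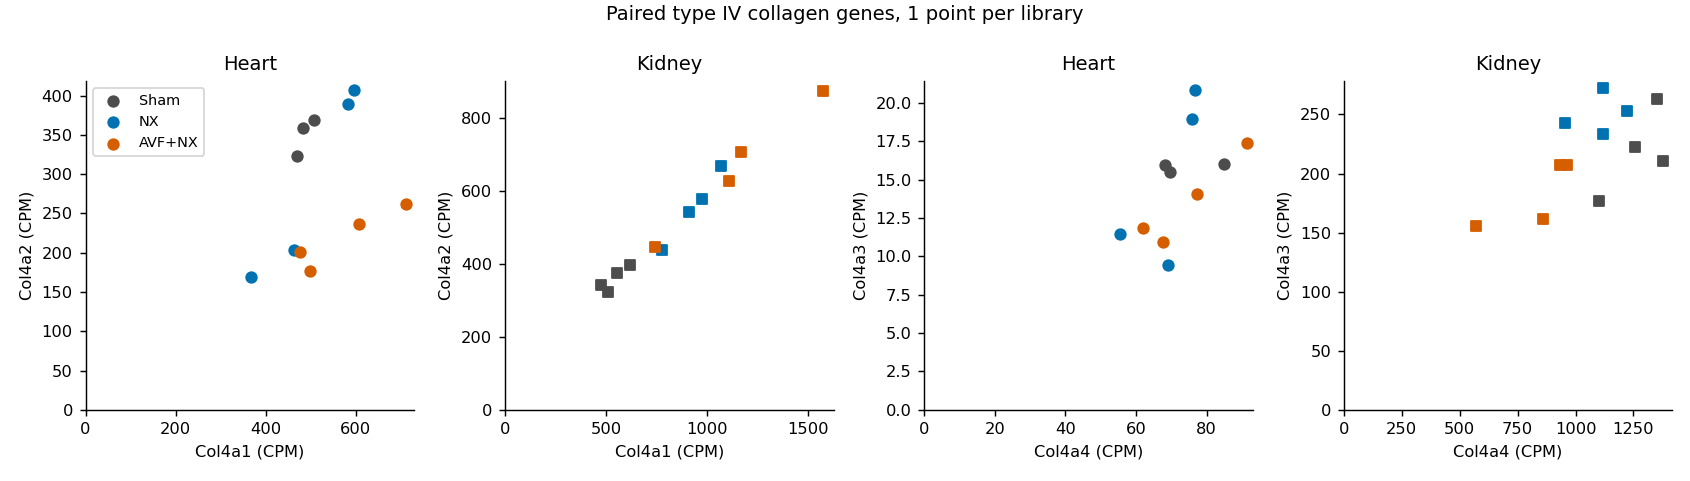
Levels (CPM, axes from 0) of the paired genes Col4a1 and Col4a2 (left panels) and Col4a4 and Col4a3 (right panels) in heart and kidney, with 1 point per library coloured by group. Col4a1 and Col4a2 lie along 1 line in kidney, and in heart the AVF+NX libraries and 2 NX libraries lie below the Sham libraries in Col4a2.

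In kidney the head-to-head genes Col4a1 and Col4a2 moved together, and Col4a3 and Col4a4 did so less closely. Pearson's r of log2 CPM over the 12 kidney libraries was 0.988 for Col4a1 and Col4a2 and 0.685 for Col4a3 and Col4a4. It was -0.767 for Col4a1 and Col4a4. Col4a1 also had r = 0.921 with Lamc1 and 0.825 with Nid1. These correlations describe libraries that share the group differences and 1 scaling each. Among 12690 kidney genes compared by the same measure, Col4a2 was the gene most like Col4a1, and the 5 most like it also held Ankrd13b (0.986), Mdfi (0.965) and Loxl2 (0.965). Of these, Loxl2 encodes a lysyl oxidase that cross-links type IV collagen. Those most like Col4a3 were Fxr2 (0.949), Osbpl8 (0.917), Tpcn1 (0.91), Cluh (0.899) and Arc (0.898), and Col4a4 stood at position 331.

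The transcripts of the 2 collagen pairs in kidney were set against each other by a ratio within each library. This ratio is the per-length sum of Col4a3 and Col4a4 over that of Col4a1 and Col4a2. On the log2 scale it was -0.10, 0.15, -0.15 and -0.11 in Sham, -1.0, -0.82, -0.53 and -1.12 in NX and -2.46, -1.34, -0.77 and -1.64 in AVF+NX. Every NX and AVF+NX kidney was below every Sham kidney, while NX and AVF+NX overlapped. The means were -0.06 ± 0.14 (SD, n = 4), -0.87 ± 0.25 and -1.55 ± 0.70. In heart the mean ratio was -3.98 in Sham, -3.94 in NX and -3.89 in AVF+NX, with overlapping libraries. The ratio joins genes tested above and is a description without a test of its own. It leaves out Col4a5, the third chain of the glomerular network, whose kidney means were 137.2 CPM in Sham, 162.5 in NX and 141.1 in AVF+NX. Protein was not measured.

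Podocyte and tubule markers moved beside these kidney genes. Between Sham and AVF+NX kidneys 15.9% of all genes tested rose and 9.18% fell. The summed level of 13 podocyte markers was 1651 to 1769 CPM in Sham, 1192 to 1559 in NX and 1198 to 1459 in AVF+NX kidneys. Of the 13, 6 fell and 1 rose between Sham and AVF+NX, with Nphs1 (nephrin) changed by -0.90 (log2, SE 0.15, adjusted p = 0.00135), Plce1 by -0.51, Clic5 by -0.80 and Magi2 by -0.93. In NX 1 of 13 fell, Plce1, with a log2 change of -0.48, beside 1.31% of all genes called in either direction. The 8 proximal tubule markers summed to 18490 to 22770 CPM in Sham and 10790 to 16120 in AVF+NX, with 5 of 8 lower. The part of either in the Col4a4 result was not tested.

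Markers of fibroblasts and immune cells rose in the same kidneys, beside 15.9% of all genes higher and 9.18% lower in AVF+NX than in Sham. The sum of 9 fibroblast markers was 645 to 895 CPM in Sham, 1045 to 3347 in NX and 3105 to 6856 in AVF+NX, with 8 of 9 higher in AVF+NX than in Sham. Much of the AVF+NX sum was Col1a1 (mean 153 CPM in Sham, 2067 in AVF+NX) and Col3a1 (182 and 1959). Both are also counted among the fibrillar collagen genes below. The sum of 8 macrophage markers was 290 to 364 CPM in Sham and 1025 to 2261 in AVF+NX, with 8 of 8 higher, and 5 of 5 B and plasma cell markers were higher. Of 9 mural cell markers 4 rose (Tagln, Mcam, Acta2 and Pdgfrb), and of 11 endothelial markers 1 rose (Cdh5) and 3 fell (Kdr, Flt1 and Emcn). The summed endothelial level was 1066 to 1185 CPM in Sham and 899 to 1135 in AVF+NX. The part of these cells in the Col4a1, Col4a2 and Lamc1 results was not tested. Among 8 markers of distal tubule and collecting duct 3 fell, and of 4 cardiomyocyte markers tested in kidney 1 fell.

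The rest of the basement membrane genes also changed in both directions in AVF+NX kidneys, where 15.9% of all genes tested rose and 9.18% fell. Of 25 other basement membrane genes tested, 8 rose and 6 fell, and the median log2 change was 0.27. Sparc, a collagen-binding matricellular protein, rose by 1.38 (SE 0.19, adjusted p = 0.000311) and Col15a1 by 2.94 on the log2 scale. Npnt (nephronectin) changed by -0.61 and Fras1 by -0.64. Of 13 genes for collagen processing and cross-linking 7 rose and 1 fell, with a median of 0.41. Loxl2 rose by 1.68, the collagen chaperone gene Serpinh1 by 1.07 and Pxdn, the peroxidase that forms sulfilimine bonds in type IV collagen, by 1.39, while P3h2, a prolyl hydroxylase of type IV collagen, changed by -0.66. Of 18 laminin and collagen receptor genes 4 rose and 2 fell, with Itgb4 at 1.11, Itgb1 at 0.35, Itga7 at -0.49 and Itga1 at -0.30 and a median of 0.08. Of 7 fibrillar collagen genes 6 rose, with a median of 1.97, and Col1a1 rose by 3.75 and Col3a1 by 3.43.

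In NX kidneys these lists held few calls, where 1.31% of all genes tested were called in either direction. None of the 25 other basement membrane genes or the 13 processing genes was called by edgeR's test. Among the 18 receptor genes Dmd (dystrophin) rose by 0.37 (adjusted p = 0.0389). Of the 7 fibrillar collagen genes Col1a1 rose by 2.19 and Col3a1 by 2.03, and Mrc1 rose among the 8 macrophage markers, Jchain and Mzb1 among the 5 B and plasma cell markers and Col1a1 and Col3a1 among the 9 fibroblast markers. Vwf changed by -0.78 among the 11 endothelial markers. Of the mural, proximal tubule and distal tubule lists 0 genes were called.

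**Figure D3:**
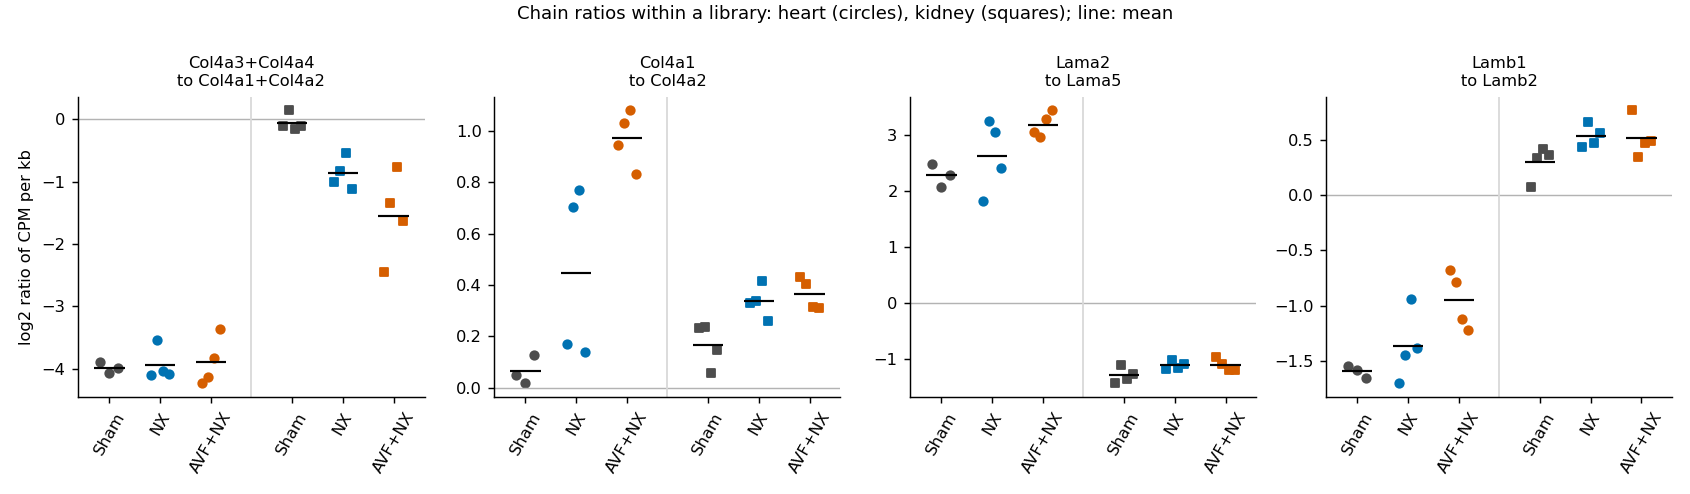
Log2 ratio of per-length levels within each library (y axis, a separate scale per panel) for Col4a3 plus Col4a4 to Col4a1 plus Col4a2, Col4a1 to Col4a2, Lama2 to Lama5 and Lamb1 to Lamb2, with heart as circles, kidney as squares and lines at the means. The first ratio is near 0 in Sham kidneys and at or below -0.53 in every NX and AVF+NX kidney, and the Col4a1 to Col4a2 ratio is highest in AVF+NX hearts.

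In heart, the comparison of NX with Sham asks what loss of kidney tissue was followed by in the heart. Lama2 was 292, 356.5 and 359.9 CPM in the 3 Sham hearts and 391, 517.5, 554 and 477 CPM in the 4 NX hearts. Nid1 was 210.3, 213 and 206 CPM in Sham and 281, 243, 319 and 273 in NX. Lamc1 was 400.2, 440.0 and 430.0 CPM in Sham and 441, 582, 633 and 508 in NX, so that all 3 genes had every NX heart above every Sham heart, by a narrow margin for Lamc1. Separation in either direction was found in 15.9% of the 12794 genes tested, and with NX above Sham in 6.92%. The log2 changes were 0.53 for Lama2 (SE 0.13, adjusted p = 0.141), 0.41 for Nid1 (SE 0.12, adjusted p = 0.152) and 0.35 for Lamc1 (SE 0.14, adjusted p = 0.198). EdgeR's test called 0 of the 10 genes and 0% of all genes in this comparison. Lama2, Nid1 and Lamc1, the 3 of 10 with an unadjusted p under 0.05, ranked 137, 410 and 1582 by that p among all genes. DESeq2 called 2 (Lama2 and Nid1) and limma voom called 3 (with Lamc1), and their shares of all genes are not given here. Leaving out NX library 1 gave a call in edgeR for Lama2 (0.62, adjusted p = 0.0362). In the authors' deposited table Lama2 and Nid1 each had an adjusted p of 0.0314, where 0.726% of the genes listed were below 0.05. The other 7 genes had log2 values from -0.26 (Col4a2) to 0.20 (Lama5).

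With nephrectomy and fistula together, the laminin genes Lama2 and Lamc1 and the nidogen gene Nid1 rose in heart and the laminin gene Lamb2 fell. Lama2 was 593.5, 622, 463 and 542 CPM in AVF+NX hearts, 1.65-fold the Sham level (log2 0.72, SE 0.13, adjusted p = 0.00294). Lamc1 was 730.3, 764, 566 and 555 CPM, 1.54-fold (log2 0.63, SE 0.14, adjusted p = 0.00616). Nid1 was 432, 420.4, 334 and 316 CPM, 1.79-fold (log2 0.84, SE 0.12, adjusted p = 0.00183). All AVF+NX hearts were above all Sham hearts for these genes, and libraries 1 and 2 were the highest for Lamc1 and Nid1. The beta chain gene Lamb2 was 758, 824 and 852 CPM in Sham and 591, 679, 620.0 and 595 in AVF+NX, with no overlap (log2 -0.39, SE 0.12, adjusted p = 0.0216). This call for Lamb2 was lost when AVF+NX library 1 (adjusted p = 0.0574), Sham library 2 (0.0721) or Sham library 3 (0.0874) was left out.

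These 3 of 10 higher genes stood beside 15.4% of all genes and the 1 of 10 lower beside 18.6%, where 34.1% were called in either direction. The median log2 change was 0.12 over the 10 genes and 0.01 over all genes tested. The other beta chain gene, Lamb1, was 248, 263 and 259.6 CPM in Sham and 353, 376.5, 273 and 244 CPM in AVF+NX, with overlap (log2 0.28, SE 0.15, adjusted p = 0.15). Leaving out library 4, the lowest of AVF+NX, gave a call for Lamb1 (0.39, adjusted p = 0.0434). Lama5, Col4a3 and Col4a4 had log2 values of -0.17, -0.24 and 0.00 with overlapping groups.

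The ubiquitous collagen genes Col4a1 and Col4a2 had values of opposite sign in AVF+NX hearts. Col4a1 was 508, 483 and 469 CPM in Sham and 607, 713, 499 and 476 in AVF+NX hearts, overlapping (log2 0.24, SE 0.17, adjusted p = 0.291). Col4a2 was 368, 358 and 323 CPM in Sham and 237, 262, 177 and 201 in AVF+NX hearts. Every AVF+NX heart was below every Sham heart for Col4a2, while edgeR's test did not call it (log2 -0.67, SE 0.27, adjusted p = 0.0763). DESeq2 (adjusted p = 0.0286), limma voom (0.0115) and a fit of only these groups in edgeR (0.00152) called it lower. Its adjusted p in the authors' deposited table was 3.02e-06, where 40.4% of the genes listed were below 0.05. With Col4a2, 5 of the 10 genes had groups that did not overlap, beside 47.4% of all genes.

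In NX hearts Col4a2 was 389, 169, 203.5 and 407 CPM and Col4a1 583, 367, 463 and 597 CPM. NX libraries 2 and 3 were near AVF+NX in Col4a2 and NX libraries 1 and 4 near Sham. The log2 ratio of Col4a1 to Col4a2 per length was 0.05, 0.02 and 0.13 in Sham, 0.17, 0.70, 0.77 and 0.14 in NX and 0.95, 1.03, 1.08 and 0.83 in AVF+NX. In kidney the same ratio had means of 0.17, 0.34 and 0.36 in Sham, NX and AVF+NX. Pearson's r between Col4a1 and Col4a2 was 0.443 over the 11 heart libraries. Col4a2 had r = 0.835 with Lamb2 and 0.818 with Col4a3.

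Depth and the small RNA index moved with the heart ratio. NX libraries 2 and 3 had 22679092 and 18034380 counts and small RNA indices of -0.92 and -0.54, and NX libraries 1 and 4 had 9605973 and 10511439 counts and indices of 0.99 and 0.55. AVF+NX libraries 1 to 4 had 27988586, 48079431, 44661599 and 11889483 counts and indices of -0.17, -0.43, -0.78 and -0.78. AVF+NX library 4, with a total count near those of Sham, had a ratio of 0.83, above every Sham heart. With the index as a covariate the Col4a2 difference between AVF+NX and Sham was 0.19 (adjusted p = 0.501) and Col4a1 was called higher (0.70, adjusted p = 0.0434). The part of RNA quality in the ratio was not tested further.

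**Figure D4:**
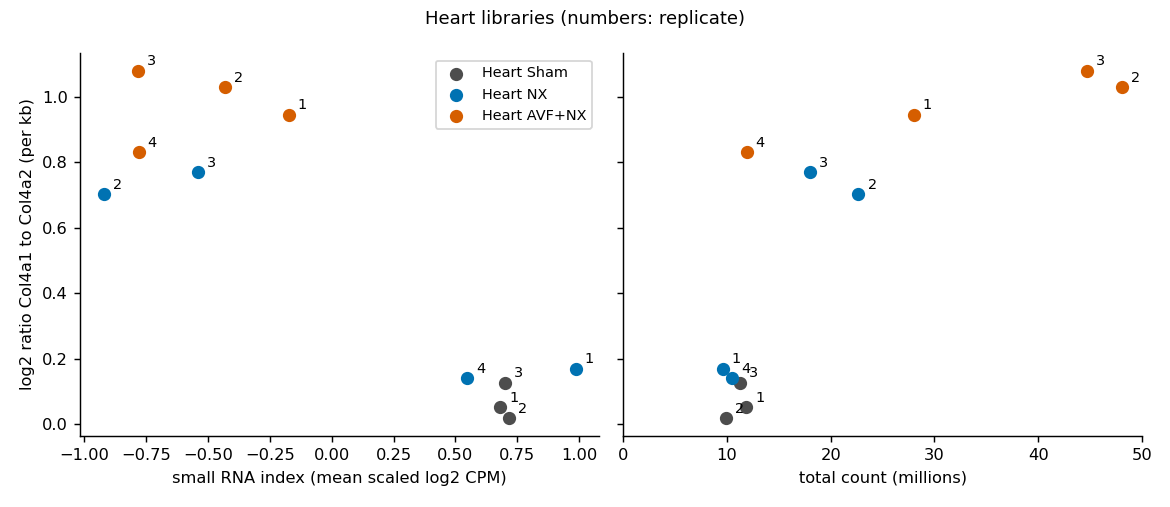
Log2 ratio of Col4a1 to Col4a2 per length (y axis) in each heart library against the small RNA index (left) and the total count (right), coloured by group and numbered by replicate. The Sham hearts and NX libraries 1 and 4 lie at ratios from 0.02 to 0.17 with positive indices, and the AVF+NX hearts and NX libraries 2 and 3 at 0.70 to 1.08 with negative indices.

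Of the heart genes called between Sham and AVF+NX, Nid1 kept its call when the small RNA index entered the model. Neither the index nor the total count overlapped between Sham and AVF+NX hearts, so they and the group cannot be told apart here. With the small RNA index in the model Nid1 was at 0.96 (adjusted p = 0.0204), while Lama2 (0.55, adjusted p = 0.0966), Lamc1 (0.46, adjusted p = 0.172) and Lamb2 (-0.11, adjusted p = 0.612) were not called. With log2 total count in the model 0 of the 10 and 2 of all genes were called, with Nid1 at 0.73 (adjusted p = 0.119), Lama2 at 0.61 (0.157), Lamc1 at 0.36 (0.28) and Lamb2 at -0.30 (0.36).

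Lama2, Lamc1 and Nid1 moved together across hearts, with Pearson's r of 0.944 for Lama2 and Lamc1, 0.892 for Lamc1 and Nid1 and 0.845 for Lama2 and Nid1 over 11 libraries that share the group differences. The log2 ratio of Lama2 to Lama5 per length had means of 2.29 in Sham, 2.64 in NX and 3.19 in AVF+NX hearts, and every AVF+NX heart was above every Sham heart. The ratio of Lamb1 to Lamb2 was -1.59 ± 0.05 in Sham (SD, n = 3), -1.37 ± 0.32 in NX (n = 4) and -0.95 ± 0.26 in AVF+NX hearts (n = 4). Lamb2 thus stayed the more abundant beta chain gene in every heart, while in every kidney Lamb1 was above Lamb2 per length. The genes most like Col4a1 across hearts were Ogdhl (0.89), Ssc5d (0.87), Mcm6 (0.866), Hba-a2 (0.864) and Alas2 (0.861), and Lamb1 was at position 73 of 11262.

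Other pathway genes in AVF+NX hearts changed in both directions, as did all genes tested, of which 15.4% rose and 18.6% fell. Of 21 other basement membrane genes tested 4 rose and 2 fell, and their median log2 change was -0.04. Those with the smallest p were Sparc (0.43, adjusted p = 0.00437), Nid2 (1.02), the endothelial laminin alpha chain gene Lama4 (0.68) and Smoc2 (0.64). Of 18 receptor genes 7 rose and 5 fell, with a median of 0.23. Itga7, the alpha subunit of the main laminin integrin of muscle, changed by -0.82 (adjusted p = 0.00218), Ddr1 by -1.22, Ddr2 by 0.67 and Itga1 by 0.63. Of 13 processing genes 4 rose and 0 fell, with P4ha1 at 1.14, Plod2 at 0.88, Loxl2 at 0.72 and Pxdn at 0.68 and a median of 0.19. Of 5 fibrillar collagen genes 3 rose (Col5a2 by 0.46, Col1a1 by 0.77 and Col3a1 by 0.92). In NX hearts 0 genes of any list were called by edgeR's test.

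Some endothelial and fibroblast markers rose beside the heart genes, where 15.4% of all genes tested rose and 18.6% fell. Of 11 endothelial markers 5 rose, among them Emcn (0.92), Cdh5 (0.55), Tek (0.55) and Erg (0.51), and 0 fell. Log2 changes over the 11 ran from -0.30 to 0.92. The summed level of the 11 was 1085 to 1274 CPM in Sham and 1369 to 1611 in AVF+NX. Of 9 fibroblast markers 6 rose, with Mfap5 at 1.42, Lum at 1.12, Dcn at 0.67 and Pdgfra at 0.62, and 0 fell. Log2 changes over the 9 ran from -0.31 to 1.52, with sums of 1671 to 2196 CPM in Sham and 2527 to 3900 in AVF+NX. Of 9 mural cell markers 2 rose, of 8 macrophage markers 3 rose and 1 fell, and of 8 cardiomyocyte markers 1 rose (Pln) and 2 fell (Myl3 and Tnni3). The cardiomyocyte sum was 62860 to 75000 CPM in Sham and 61180 to 69810 in AVF+NX. The part of these markers in the Lama2, Lamc1 and Nid1 results was not tested. Of 11 podocyte markers tested in heart 4 rose and 1 fell, and of 2 proximal tubule markers and 1 distal tubule marker none was called.

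The comparison of AVF+NX with NX asks what the fistula added. In heart edgeR's test called 0 of the 10 genes, beside 0.336% of all genes, with 2 of 10 at an unadjusted p under 0.05. These were Nid1 (0.43, SE 0.11, adjusted p = 0.0872, rank 296 by p) and Lamb2 (-0.33, SE 0.11, adjusted p = 0.13, rank 896) among 12794 genes tested. None of the 10 genes separated the groups, beside 10.1% of all genes. DESeq2 called Nid1 (adjusted p = 0.0168) and Lamb2 (adjusted p = 0.0494) and limma voom called 0, with their shares of all genes not given here. EdgeR called Nid1 and Lamb2 without NX library 3 (adjusted p = 0.0392 and 0.0444). Sparc (0.47, adjusted p = 0.0378) among the other basement membrane genes and P4ha1 (0.80, adjusted p = 0.0443) among the processing genes were the only calls of the lists in heart.

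In kidney edgeR's test also called 0 of 10 between AVF+NX and NX, beside 6.07% of all genes, with 2 of 10 at an unadjusted p under 0.05. Col4a3 was below NX in all AVF+NX kidneys, a separation found in 11.8% of all genes, and in this direction in 4.31% (log2 -0.45, SE 0.13, adjusted p = 0.0564), and Col4a4 changed by -0.41 (adjusted p = 0.136) with overlap. DESeq2 (adjusted p = 0.0158) and limma voom (0.049) called Col4a3 lower. Its adjusted p in the authors' deposited table was 0.00867, where 7.86% of the genes listed were below 0.05. Without AVF+NX library 3 edgeR called Col4a3 (-0.50, adjusted p = 0.0362), Lamc1 (0.42, adjusted p = 0.0269) and Nid1 (0.58, adjusted p = 0.0396). Col4a1 (0.30, 95% interval -0.11 to 0.70) and Col4a2 (0.25, -0.14 to 0.64) were not called. Of the lists, 5 of 8 macrophage and 5 of 5 B and plasma cell markers rose, as did 2 of 7 fibrillar collagen genes and 2 of 9 fibroblast markers. Of the other basement membrane genes and of the processing genes 1 rose and 1 fell each, 1 of 18 receptor genes and 1 of 8 distal tubule markers fell and 1 of 13 podocyte markers rose. The 3 comparisons within an organ share libraries, so their values are not independent.

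Whether a gene's response differed between the organs was tested as the heart change minus the kidney change in 1 fit of all 23 libraries. For AVF+NX against Sham 4 of 10 genes were called, beside 27.9% of the 15222 genes tested. Col4a2 differed by -1.47 (SE 0.32, adjusted p = 0.00245), Col4a1 by -0.76 (SE 0.26, adjusted p = 0.0314), Col4a4 by 0.70 (SE 0.21, adjusted p = 0.0181) and Lama2 by 0.76 (SE 0.20, adjusted p = 0.00666) on the log2 scale. Col4a1 and Col4a2, called higher in kidney, were at 0.24 and -0.67 in heart. Col4a4, called lower in kidney, was at 0.00 in heart, and Lama2, called higher in heart, was at 0.05 in kidney. The Col4a1 difference lost its call in 9 of 21 alternatives (adjusted p from 0.0557 to 0.121), 7 of them leaving out 1 library (heart Sham 1 or 2, heart AVF+NX 3 or 4, kidney Sham 2 or 3, or kidney AVF+NX 1), and that of Col4a4 without Sham heart library 3 (adjusted p = 0.0545). With log2 total count in the model the calls for Col4a2 (-1.28, adjusted p = 0.0655) and Lama2 (0.59, adjusted p = 0.117) were also lost. Lamc1, called higher in both organs, and Nid1, called higher in heart, had organ differences of 0.18 (95% interval -0.26 to 0.62) and 0.33 (-0.21 to 0.88).

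For NX against Sham 0 of 10 organ differences were called, beside 0.158% of all genes, with 3 of 10 at an unadjusted p under 0.05. These were Lama2 (0.56, adjusted p = 0.164, rank 785 by p), Col4a1 (-0.70, adjusted p = 0.19, rank 1036) and Col4a2 (-0.85, adjusted p = 0.195, rank 1103) among 15222 genes. DESeq2 called 0 and limma voom called these 3, with their shares of all genes not given here. For AVF+NX against NX 0 of 10 were called by edgeR, DESeq2 or limma voom, beside 1.12% of all genes by edgeR. Of the 10, 1 (Col4a4, 0.55) had an unadjusted p under 0.05 in edgeR, at rank 1281.

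**Figure D5:**
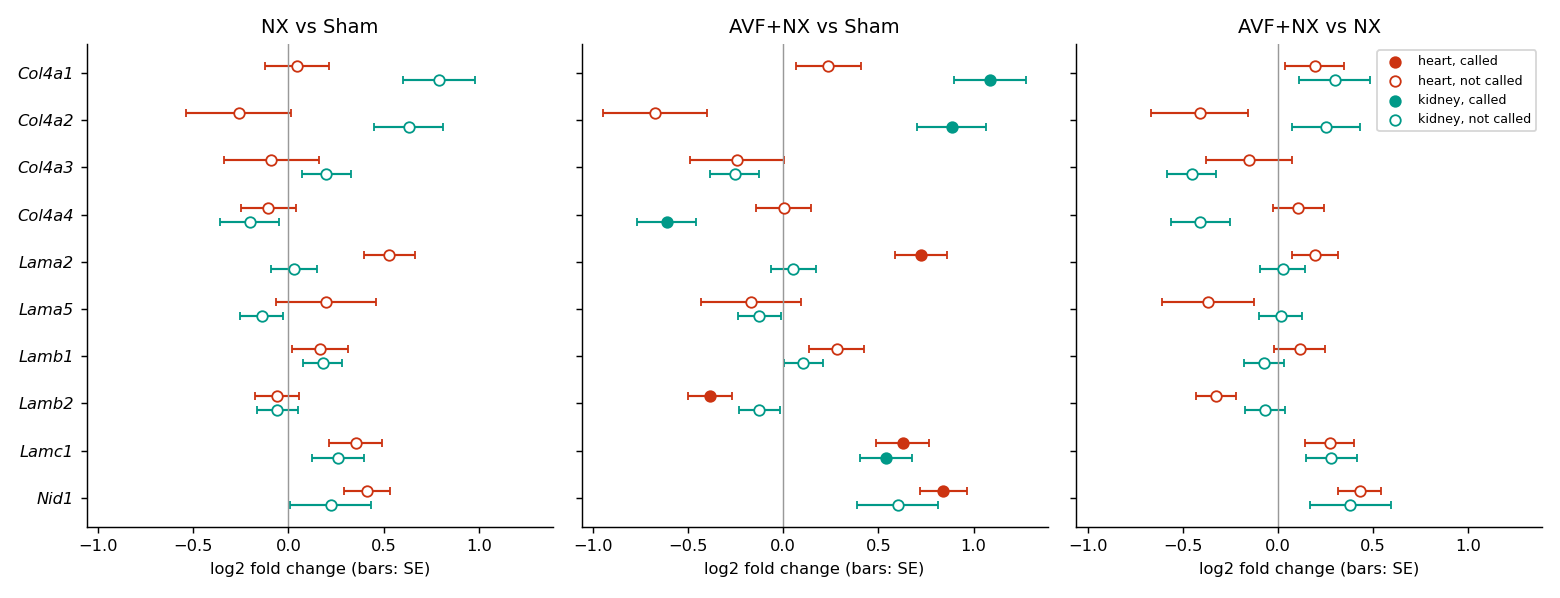
Log2 fold change (x axis, bars are SE) of the 10 genes in heart and kidney for the 3 comparisons, with filled points where edgeR's adjusted p was below 0.05. Filled points occur only for AVF+NX against Sham, at Col4a1, Col4a2, Lamc1 (higher) and Col4a4 (lower) in kidney and at Lama2, Lamc1, Nid1 (higher) and Lamb2 (lower) in heart.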

How the data were processed

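RNA-seq of poly(A) RNA from heart and kidney was analysed from whole-number counts per gene, deposited by the authors with gene coordinates and exon lengths, per the file headers. The submitters' processing notes list Trimmomatic 0.36, STAR 2.5.2b, featureCounts and Subread 1.5.2. The labels' protocols describe strand-specific libraries. Neither the genome build nor the counter's strand setting is given in these sources. The authors also deposited 6 tables of log2 fold changes, p-values and adjusted p-values made with a tool that was not given in the sources used here, and their normalised signal per library was not analysed here. Symbols come from the authors' tables.

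EdgeR 4.0.16 (R 4.3.3) was fitted to the 3 groups of an organ together, after filterByExpr (12794 heart and 14322 kidney genes) and TMM scaling, with robust quasi-likelihood F tests and Benjamini-Hochberg adjustment over all genes tested. SE is the size of a log2 change over the square root of its F, and 95% intervals use the test's degrees of freedom. CPM use the scaling of the organ, and levels per kb use 1 scaling of all 23 libraries. Organ differences and sham organs were compared in 1 fit of 15222 genes. No pair of replicates agreed within sampling noise (lowest chi-square over its degrees of freedom 6.49). P-values measure the spread between the numbered biological replicates. The procedure was tested on simulated counts.

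The 10 genes, the gene lists and the naming rule were chosen with earlier results of these data known. The rule names all 10 genes, up to 4 called genes with the smallest p of each list, and the 5 genes most like Col4a1 in each organ and most like Col4a3 in kidney (log2 CPM with a prior count of 2, mean of at least 1 CPM); 1 gene so chosen is not reported here. In counts of 5 or fewer called genes, names outside that rule were chosen after their values were seen. Alternatives were DESeq2's size factors, no count filter, DESeq2 1.42.0, limma 3.58.1 (voom with quality weights), the replicate number as a term, covariates, fits of only the groups compared and leaving out each library.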

Additional observations from a re-analysis of the deposited data

Results flagged for a closer look

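In 75 groups of 4 libraries checked for a library far from the others, 3 held one, where chance gives about 1 in 20 (3.75). Lama5 was 262.7 CPM in NX kidney library 1, beside 205.6 to 212.6 CPM in the other NX kidneys. Lamc1 was 149.5 CPM in NX kidney library 3, beside 190.6 to 198.9 CPM in the others. The log2 ratio of Col4a3 plus Col4a4 to Col4a1 plus Col4a2 was -3.54 in NX heart library 2, beside -4.10 to -4.04 in the other NX hearts.

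Responses to AVF+NX against Sham differed between heart and kidney by an interaction test in edgeR for 4 genes, given as heart minus kidney on the log2 scale. The difference was -0.76 for Col4a1, -1.47 for Col4a2, 0.70 for Col4a4 and 0.76 for Lama2.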

How the results depend on the processing

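Of 21 called results for the 10 genes, 8 kept their call in every alternative run. All 8 were differences between sham heart and sham kidney. Each call on an operation, or on an organ difference in response to one, was lost in at least 1 alternative. With the small RNA index the heart AVF+NX vs Sham count was 2 in place of 4, and with log2 total count it was 0. Leaving out 1 library gave 3 to 5 there and 4 to 5 in the same kidney comparison, where the immune index gave 0 in place of 4 and turned the direction of Col4a1 (-0.10), Col4a2 (-0.46) and Lamc1 (-0.33). For kidney NX vs Sham, 0 genes called became 1 with no count filter, 2 with DESeq2, limma voom or only the groups compared and 0 to 2 without 1 library. For heart NX vs Sham 0 became 2 with DESeq2, 3 with limma voom and 0 to 1 without 1 library. For heart AVF+NX vs NX 0 became 2 with DESeq2 and 0 to 2 without 1 library. For kidney AVF+NX vs NX 0 became 1 with DESeq2, limma voom or log2 total count and 0 to 3 without 1 library. The organ difference of AVF+NX vs Sham gave 1 in place of 4 with log2 total count and 3 to 4 without 1 library, and that of NX vs Sham gave 3 with limma voom in place of 0. Sham heart against Sham kidney gave 8 to 9 without 1 library. The shares of all genes called by DESeq2 and limma voom are not given here, so their counts cannot be set against all genes. The causes were not tested.

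With the replicate number as a block, 2 genes were called for kidney NX vs Sham (Col4a1 0.79, adjusted p = 0.0136, and Col4a2 0.62, adjusted p = 0.0279, by edgeR), 5 for heart AVF+NX vs Sham and 5 for kidney AVF+NX vs Sham (with Nid1, 0.55, adjusted p = 0.00621). Deviations of same-numbered libraries from their group means correlated at -0.12 to 0.12 over 10 heart pairs and -0.08 to 0.38 over 12 kidney pairs (median 0.17, 7 above 0.1, against a median of -0.01 and 6 of 36 for kidney pairs of different number). The labels tie the numbers to no litter, batch or day and not every pair was above 0.1, so the samples were not treated as paired, although the kidney values are a hint that some same-numbered libraries vary together. A library correlated best with its own number in 2 of 22 heart and 13 of 24 kidney cases. Of 1385 uncalled values 40 gained a call and 92 changed sign without one. Of 60 group levels per length 55 moved by over 1 SD when raw library totals replaced TMM, and the order of genes within a library does not depend on this. The direction between sham heart and sham kidney did for Lamb1 and Col4a1, whose mean levels were then lower in heart. Depth limits Col4a3 in heart most, at 150 reads in the lowest library.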
